A study of Mus musculus with 57 samples.

Results

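Fatty acid oxidation and its control by PPARα were followed through 30 genes, chosen by symbol: carnitine transfer enzymes, the mitochondrial β-oxidation enzymes and their electron acceptors, peroxisomal enzymes, the fatty acid hydroxylases Cyp4a10 and Cyp4a14, and the regulators Ppara, Ppargc1a and Pdk4. Of the 30 genes, 29 had a probe set annotated with that symbol alone among 19938 genes so measured, and all 29 passed the filter on low values. Acsl1, which joins long-chain fatty acids to coenzyme A, had no such probe set and was not analysed here. Where a gene had several probe sets the one with the highest mean was used. The second probe set of Hadhb gave nearly the same log2 differences in the IRI comparisons (−1.01 against −0.99 in the interstitial line, for example). That of Ppargc1a was also lower in the 24 h comparisons with sham, by more (−2.21 against −1.34 in tag-free kidneys), but was at 0.21 against −0.01 at 4 h.

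The study profiled male mouse kidneys after ischemia-reperfusion injury (IRI), in which both renal arteries were clamped for 28 min, on 57 arrays in 19 groups. In translating ribosome affinity purification (TRAP) a GFP-tagged ribosomal protein L10a, switched on from a Rosa26-CAGGS-eGFPL10a allele by Cre, is pulled down with its messenger RNA. Injured kidneys were taken at 24 h, with sham-operated kidneys at 24 h and kidneys without surgery, in each of 4 lines with 3 arrays a group. Nephron epithelium carried six2-CRE (injured and sham mice 8 weeks old, mice without surgery 6 weeks, plus 3 arrays at 4 h after IRI at 8 weeks), interstitium foxd1-CRE (6 weeks), endothelium cdh5-CRE (6 weeks) and myeloid cells lyz2-CRE (injured mice 9.5 weeks, sham and no surgery 7 weeks). The pulldown was also run on kidneys without Cre, 4 injured and 2 sham-operated arrays for each of mice with the L10a allele alone and wild-type mice without a tag, all 8 weeks old. Total RNA of whole kidneys, 3 injured and 3 sham-operated at 8 weeks, completed the set, and its titles also name L10a mice. The labels give the genotype of the L10a mice both as homozygous and as heterozygous, describe their signal as coming from podocytes and some collecting duct cells, and give wild-type mice both as C57BL/6 and as a mixed background. Each Cre marks cells by descent, so the foxd1-CRE line can include podocytes and the lyz2-CRE line neutrophils as well as macrophages. No sham group at 4 h was analysed here, and the 24 h sham arrays served both times. The labels call the arrays of a group biological replicates.

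In β-oxidation a fatty acid is joined to coenzyme A, carried into mitochondria as a carnitine ester, and shortened in repeated rounds of dehydrogenation, hydration, a second dehydrogenation and thiolysis. Peroxisomes shorten very long chains, and microsomal CYP4A enzymes hydroxylate the far end of the chain. PPARα, with its coactivator PGC-1α, the product of Ppargc1a, switches on many of these genes in liver and kidney, and the proximal tubule is known to draw most of its energy from fatty acids.

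Values below are log2 probe set intensities, so a level is on the log2 scale and a difference of 1 is a doubling. Levels of different genes are not set against each other. Differences were tested with limma over all 19302 genes that passed the filter, and a gene was called at a Benjamini-Hochberg adjusted p under 0.05. Median intensities were 105.8 to 128.4 in the 51 TRAP arrays and 43.9 to 53.3 in the 6 total RNA arrays, so levels were not compared between total RNA and TRAP arrays, although 1 model over all 57 arrays supplied the spread for both. Defining markers of the lines had log2 levels of 12.27 to 12.57 for Kdr over the endothelial arrays, 11.78 to 12.28 for Pdgfrb over the interstitial arrays and 10.95 to 12.24 for Adgre1 over the myeloid arrays. They were not restricted to those lines: Adgre1 was at 11.31 to 11.58 in endothelial sham arrays, above some injured myeloid arrays (10.95 to 11.46), and Pdgfrb was at 11.76 to 11.91 in sham arrays of tag-free kidneys. The proximal tubule transporter Slc34a1 was at 12.94 to 13.25 in the nephron line, but also at 13.01 to 13.05 in interstitial sham arrays and at 13.23 to 13.30 in sham arrays of tag-free wild-type kidneys. In bulk RNA of this kind, fewer cells of a type and less RNA per cell cannot be told apart.

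The signal of these genes in tag-free kidneys bears on every pulldown result that follows. In sham-operated kidneys, 26 of the 29 genes were called lower in the endothelial line than in the tag-free wild-type pulldown (55.9 percent of all genes called, 26.4 percent lower) and 28 were called lower in the myeloid line (53.2 percent of all genes called, 24.8 percent lower), with median log2 differences of −1.15 and −1.47 against −0.05 and −0.02 over all genes. Nephron arrays had 4 genes higher and 12 lower than the tag-free pulldown (48.3 percent of all genes called, median −0.41), and interstitial arrays had 2 higher and 6 lower (42 percent of all genes called, median −0.39). The interstitial count was 5 without interstitial replicate 1 and 4 without either tag-free array, and centring all TRAP arrays on 1 median gave 1 higher and 16 lower (63.6 percent of all genes called). Pex11a, which helps peroxisomes divide, stood above the tag-free pulldown in the nephron line by 2.04 ± 0.21 on the log2 scale (SE, limma adjusted p = 3.8e-11) and in the interstitial line by 1.16 ± 0.21 (limma adjusted p = 1.5e-05). Medium-chain acyl-CoA dehydrogenase, Acadm, had log2 levels of 12.79, 12.70 and 12.66 in nephron sham arrays, against 13.24 and 13.17 in tag-free sham arrays. Proximal tubule markers summed over 27 genes reached 135755 to 146581 in nephron, 127211 to 137785 in interstitial, 53609 to 83769 in endothelial and 39215 to 75089 in myeloid sham arrays, against 157011 to 161275 in tag-free sham arrays. How much of the members' signal in each line came with untagged RNA was not tested.

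**Figure D1:**
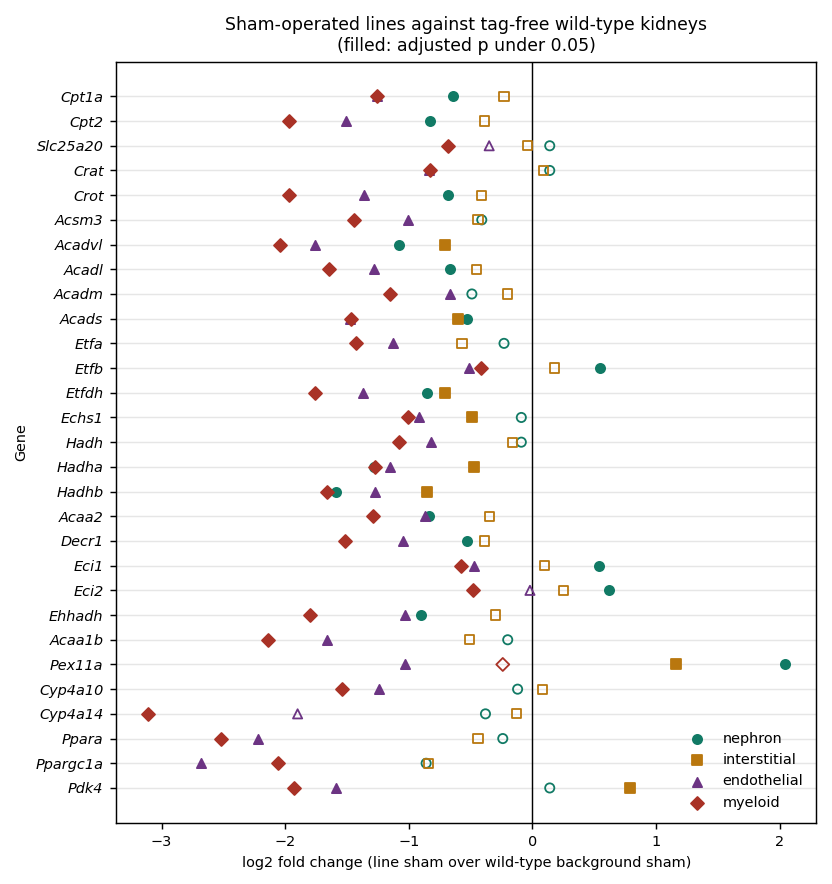
Log2 fold change of each measured gene (rows) in sham-operated nephron (circles), interstitial (squares), endothelial (triangles) and myeloid (diamonds) arrays over sham arrays of tag-free wild-type kidneys (3 arrays against 2); filled symbols passed an adjusted p of 0.05. Endothelial and myeloid symbols lie left of 0 for all 29 genes, whereas Pex11a lies far right of 0 in the nephron line at 2.04.

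Part of the pathway was lower in nephron epithelium 24 h after IRI. Of the 29 genes, 8 fell and 2 rose against sham, with 28.5 percent of all genes called (13.8 percent higher, 14.7 percent lower), and the median log2 fold change was −0.23 against −0.04 over all genes. Every injured array lay below every sham array for 16 genes and above for 4, as it did for 28.4 and 22.1 percent of all genes. The falls were spread over the pathway: medium-chain activation (Acsm3), the peroxisomal carnitine step (Crot), the dehydrogenation of medium chains (Acadm), electron transfer (Etfb), hydration (Echs1), the second dehydrogenation (Hadh), double bond handling (Eci1) and the coactivator Ppargc1a. The 2 rises were Pdk4 and the peroxisomal thiolase Acaa1b.

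Pdk4, the kinase that shuts off pyruvate dehydrogenase and so spares glucose carbon when fat is burned, had log2 levels of 12.74, 12.48 and 12.31 in injured nephron arrays, against 9.60, 10.28 and 10.73 in sham arrays. The groups were far apart, and Pdk4 rose by 2.31 ± 0.28 on the log2 scale, 4.96-fold (limma adjusted p = 1.8e-08). Ppargc1a went the other way, at 9.83, 10.41 and 10.37 in injured arrays and 11.14, 11.52 and 11.59 in sham arrays (log2 fold change −1.21 ± 0.43, limma adjusted p = 0.0288). Its call did not hold without injured replicate 1 (−1.03, limma adjusted p = 0.13), sham replicate 2 (−1.17, adjusted p = 0.076) or sham replicate 3 (−1.13, adjusted p = 0.092), although the groups did not overlap. Ppara, the receptor itself, was at 10.18, 10.62 and 10.32 in injured arrays and 10.96, 10.70 and 10.97 in sham arrays, a log2 fold change of −0.50 that did not pass (limma adjusted p = 0.15).

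Among the enzymes, Acadm, whose loss blocks the use of medium chains, had log2 levels of 11.94, 11.68 and 11.81 in injured arrays, against 12.79, 12.70 and 12.66 in sham arrays (log2 fold change −0.91 ± 0.19, limma adjusted p = 0.00028). Acsm3, a medium-chain acyl-CoA synthetase, was at 11.35, 11.11 and 11.11 in injured arrays, against 12.42, 12.55 and 12.30 in sham arrays (−1.24 ± 0.22, limma adjusted p = 2.7e-05). Crot, which makes carnitine esters of the shortened chains leaving peroxisomes, was at 10.60, 11.16 and 10.92 in injured arrays, against 11.96, 12.21 and 12.00 in sham arrays (−1.16 ± 0.23, limma adjusted p = 7.3e-05). All 3 genes separated the groups with room to spare. Echs1, the short-chain enoyl-CoA hydratase, had the tightest groups, at 10.21, 10.29 and 10.28 in injured arrays and 11.09, 11.10 and 11.14 in sham arrays (−0.85 ± 0.12, limma adjusted p = 4.2e-07). Smaller falls passed for Etfb, a subunit of the electron transfer flavoprotein (−0.41 ± 0.13), for Hadh, the short-chain 3-hydroxyacyl-CoA dehydrogenase (−0.39 ± 0.12), and for the enoyl-CoA isomerase Eci1 (−0.59 ± 0.18), with limma adjusted p of 0.0131, 0.0127 and 0.0107. Eci1 lost its call without injured replicate 1 (−0.43, limma adjusted p = 0.12) and Hadh without sham replicate 2 (−0.35, adjusted p = 0.058).

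The promoters of Pdk4, Ppargc1a and Acadm are shown because the first rose and the others fell in the same kidneys. Each window holds 300 bases, most of them before an annotated start (RefSeq, GRCm38.p6, printed 5′ to 3′ on the gene's strand): Pdk4 at chr6:5496229-5496528 (minus strand), Ppargc1a at chr5:51567676-51567975 (minus strand) and Acadm at chr3:153944594-153944893 (minus strand). The Ppargc1a window lies inside the annotated gene (chr5:51454249-52115853), whose 5′ end is farther upstream and is not shown. Capitals mark AGGTCA, the core motif that PPARs and related receptors are known to bind, or its reverse complement.
Pdk4: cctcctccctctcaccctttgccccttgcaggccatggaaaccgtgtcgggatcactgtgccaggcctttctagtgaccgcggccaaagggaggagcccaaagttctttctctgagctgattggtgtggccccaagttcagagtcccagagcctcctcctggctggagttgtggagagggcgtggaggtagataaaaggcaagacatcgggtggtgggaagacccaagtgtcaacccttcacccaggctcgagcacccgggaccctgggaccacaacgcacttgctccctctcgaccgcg
Ppargc1a: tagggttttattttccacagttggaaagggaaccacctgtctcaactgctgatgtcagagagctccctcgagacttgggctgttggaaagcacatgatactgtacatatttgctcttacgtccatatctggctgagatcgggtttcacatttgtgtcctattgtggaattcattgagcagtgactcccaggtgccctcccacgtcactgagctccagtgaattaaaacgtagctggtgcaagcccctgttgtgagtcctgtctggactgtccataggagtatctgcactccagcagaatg
Acadm: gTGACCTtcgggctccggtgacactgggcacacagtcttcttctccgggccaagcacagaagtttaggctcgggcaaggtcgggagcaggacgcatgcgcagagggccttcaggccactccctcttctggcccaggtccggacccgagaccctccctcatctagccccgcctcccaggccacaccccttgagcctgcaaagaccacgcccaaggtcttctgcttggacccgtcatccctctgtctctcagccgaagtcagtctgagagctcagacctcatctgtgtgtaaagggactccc
AGGTCA, searched on both strands, stood once in the Acadm window and in neither of the other two. Over all 32851 windows of the same length 16.3 percent held it, as did 4 of the 26 windows of 25 members (those of Acadm, Acadvl, Echs1 and Cpt1a). The direct repeat of 2 copies of AGGTCA with 1 base of any kind (N) between them was in 0.0396 percent of all windows, the same repeat of AGGNCA in 0.381 percent and the extended core motif TNAAGGTCA in 1.28 percent. All were searched on both strands and stood in none of the member windows. The direct repeat and the extended core motif contain AGGTCA, and the repeat of AGGNCA includes that of AGGTCA, so these shares overlap. The 25 members with a window did not include Cyp4a10 and Cyp4a14, whose promoters were not searched.

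Acaa1b stood at 10.89, 11.09 and 10.57 in injured nephron arrays, against 10.05, 9.67 and 9.90 in sham arrays, with no overlap (log2 fold change 0.98 ± 0.29, limma adjusted p = 0.00823). The remaining 19 genes did not pass. Log2 fold changes were 0.02 for Cpt1a, the outer membrane transferase, 0.00 for Cpt2, the inner membrane transferase, and 0.02 for Hadha, the α subunit of the trifunctional protein. Its β subunit Hadhb had −0.23, the acylcarnitine carrier Slc25a20 0.36 (limma adjusted p = 0.0567) and the acetyl transferase Crat −0.46 (limma adjusted p = 0.0544). The call of Slc25a20 was gained without injured replicate 1 (0.46, limma adjusted p = 0.028) or sham replicate 3 (0.45, adjusted p = 0.033). Among dehydrogenases of other chain lengths, Acadvl had −0.21, Acadl 0.36 and Acads −0.29, and in electron transfer Etfa had −0.48 and Etfdh, which hands the electrons to ubiquinone, −0.15. The mitochondrial thiolase Acaa2 had −0.39, the dienoyl-CoA reductase Decr1 −0.40 and the isomerase Eci2 0.01. In peroxisomes the bifunctional enzyme Ehhadh had 0.10 and Pex11a 0.31, and the hydroxylases Cyp4a10 and Cyp4a14 had −0.23 and 0.06.

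A fit on the 6 arrays alone called 20 of the 29 genes, 5 higher and 15 lower (37.7 percent of all genes called in that fit), and array weights gave 16 (41.6 percent). It added Slc25a20, Acadl and Pex11a among the rises and Crat, Acadvl, Acads, Etfa, Acaa2, Decr1 and Ppara among the falls, at the same fold changes. Proximal tubule markers summed to 89595 to 93193 in injured arrays, against 135755 to 146581 in sham arrays, and 14 of 27 were called lower with a median log2 fold change of −0.72, against −0.23 for the members. Thick limb and distal tubule markers summed to 21865 to 24112 in injured and 36703 to 40087 in sham arrays, with 8 of 13 called lower (14.7 percent of all genes). Neutrophil markers summed to 8714 to 9118 in injured and 2128 to 2735 in sham arrays, but only 2 of 13 were called higher (13.8 percent of all genes). Sums add linear intensities, so a few strong genes can carry them. In L10a kidneys without Cre the neutrophil sums were 8265 to 9384 in injured and 4097 to 5231 in sham arrays. The part of these shifts in the members' changes was not tested.

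Other genes of the same pathways also fell in the injured nephron arrays. Over all genes 14.7 percent were called lower and 13.8 percent higher there. Of 29 further mitochondrial genes 17 fell and 3 rose (median log2 fold change −0.82), and of 35 further peroxisomal and microsomal genes 17 fell and 1 rose (median −0.36). Acsm5, another medium-chain synthetase, fell by 2.44 on the log2 scale and the acyl-CoA dehydrogenases Acad12 and Acad9 by 1.49 and 1.23, Echdc3 by 1.40 and the leucine pathway hydratase Auh by 1.19, whereas Acsl4, a synthetase for arachidonic acid, rose by 1.37. In peroxisomes the racemase Amacr fell by 1.98, the isomerase Eci3 by 1.53, the reductase Pecr by 1.46, the branched-chain oxidase Acox3 by 1.39, and the thioesterases Acot3 and Acot4 by 1.31 and 1.11. Among 31 lipid genes known as PPAR targets, 8 rose and 8 fell (median −0.11). Plin2, which coats lipid droplets, rose by 2.19 ± 0.13 (limma adjusted p = 5.7e-17) and the fatty acid binding protein Fabp4 by 1.68, while Fabp3 fell by 1.72, the ketone enzyme Bdh1 by 1.63, the coenzyme A carrier Slc25a42 by 1.55 and Lpin1 by 1.52. Of 27 regulators 13 fell and 3 rose (median −0.47): Klf15 fell by 1.41, the estrogen-related receptors Esrrb and Esrra by 1.22 and 1.03, the pyruvate dehydrogenase kinase Pdk2 by 1.21 and the deacetylase Sirt3 by 1.06, and Pprc1, a relative of PGC-1α, rose by 1.16.

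Pdk4 stood apart from sham already in the 4 h arrays, whereas no other member was called there. The 4 h arrays had no sham group of their own, and their sample numbers stand apart from those of all other groups. Time and set of arrays therefore cannot be told apart in any comparison with them. At 4 h, 1 of the 29 genes was called against sham (18.4 percent of all genes called), and it was Pdk4. The members' median log2 fold change at 4 h was 0.15, against −0.05 over all genes, and 20 of the 29 had positive values. Pdk4 had log2 levels of 9.60, 10.28 and 10.73 in sham arrays, 12.55, 12.52 and 12.47 at 4 h and 12.74, 12.48 and 12.31 at 24 h. Its levels in the 4 h and 24 h arrays were alike (log2 fold change 2.31 ± 0.28 at 4 h over sham, limma adjusted p = 3.7e-08, and 0.00 at 24 h over 4 h). Ppargc1a was at 11.14, 11.52 and 11.59 in sham arrays, 11.52, 11.40 and 11.32 at 4 h and 9.83, 10.41 and 10.37 at 24 h. Its 4 h arrays lay within the sham range (log2 fold change −0.01, limma adjusted p = 0.996). Ppara had a log2 fold change of −0.25 at 4 h, Cyp4a10 −0.40 and Cyp4a14 −1.22, and none of these was called, although the 4 h arrays of both hydroxylases were all below their sham arrays.

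From 4 h to 24 h, 13 genes fell and 2 rose (27.5 percent of all genes called; median log2 fold change −0.26 against 0.00 over all genes). Acsm3 had log2 levels of 12.42, 12.55 and 12.30 in sham arrays, 12.71, 12.38 and 12.77 at 4 h and 11.35, 11.11 and 11.11 at 24 h, and fell by 1.43 between the times (limma adjusted p = 2.6e-06). Echs1 was at 11.09, 11.10 and 11.14 in sham arrays, 11.49, 11.36 and 11.42 at 4 h and 10.21, 10.29 and 10.28 at 24 h, and fell by 1.16 (limma adjusted p = 5.8e-10). Its 4 h arrays were all above its sham arrays, although that difference of 0.32 was not called (limma adjusted p = 0.0629). Acadm and Crot both fell by 0.98 between the times (limma adjusted p of 0.00011 and 0.00073) and Ppargc1a by 1.21 (adjusted p = 0.0304). The rises were Pex11a, by 0.81 ± 0.19 (limma adjusted p = 0.00077), and Slc25a20, by 0.38 ± 0.14 (adjusted p = 0.0438). The calls of Ppargc1a and Slc25a20 rested on single arrays: without one of 4 arrays Ppargc1a had adjusted p of 0.058 to 0.14 (injured 24 h replicate 1 and each 4 h replicate), and without one of 5 Slc25a20 had 0.071 to 0.16 (24 h replicates 2 and 3 and each 4 h replicate). A fit of the sham and 4 h arrays alone called 14 genes at 4 h, 9 higher and 5 lower (28.8 percent of all genes called in that fit).

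Proximal tubule markers summed to 135755 to 146581 in sham arrays, 140598 to 152108 at 4 h and 89595 to 93193 at 24 h, and were thus high in sham arrays and at 4 h and low at 24 h. Of the further mitochondrial genes counted above at 24 h, 4 rose and 1 fell at 4 h. Of the further peroxisomal and microsomal genes 2 rose and 2 fell at 4 h. Over all genes 18.4 percent were called at 4 h, 7.6 percent higher and 10.8 percent lower. Neither list had a larger share of its genes called at 4 h than all genes did. Txnip, a brake on glucose uptake, rose by 1.22 and the corepressor Nrip1 by 0.90, with smaller rises of Acot2 by 0.82, Sirt1 by 0.71, Pex5 by 0.66, Acsl5 by 0.62, Acsl4 by 0.60, Hsd17b4 by 0.58, Acadsb by 0.55 and Plin2 by 0.43. Falls at 4 h were those of Echdc3 by 1.01, Slc25a34 by 0.99, Slc25a42 by 0.87, Pdk2 by 0.56, Pex19 by 0.54, Rxra, the partner receptor of PPARs, by 0.49, Tfeb by 0.38, Pex16 by 0.36, Fabp1 by 0.33 and Rxrb by 0.32.

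**Figure D2:**
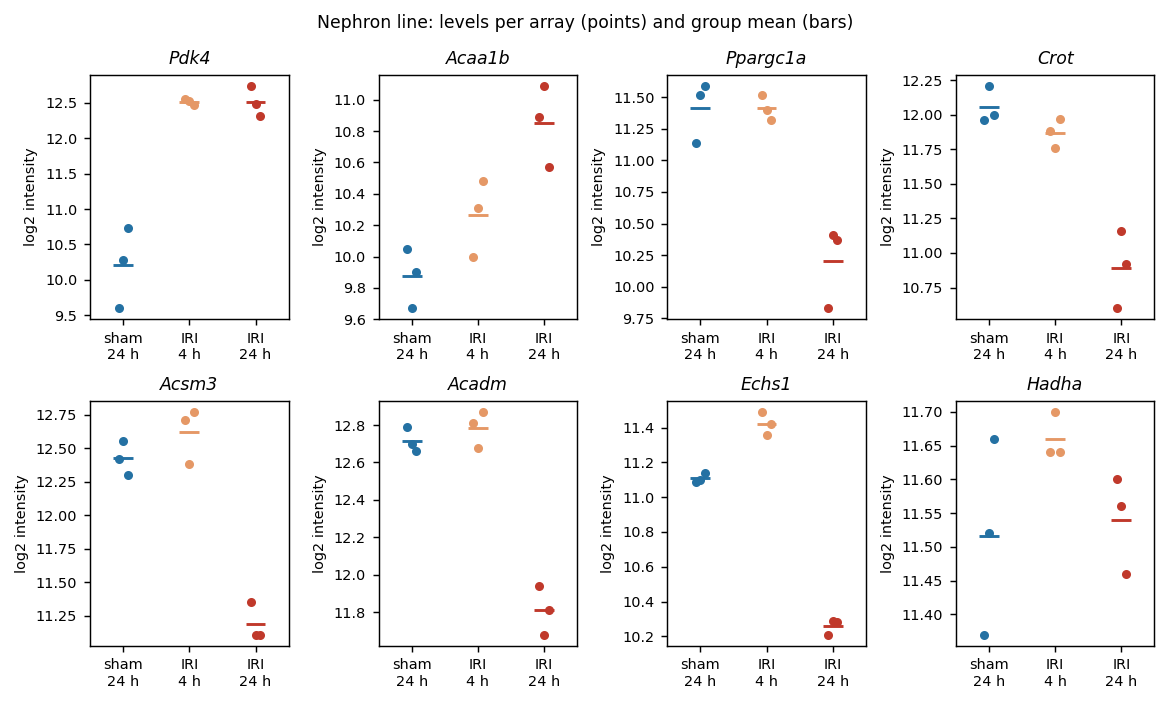
Log2 intensity (vertical axes) of 8 genes in the nephron line in sham arrays at 24 h and in injured arrays at 4 h and 24 h; points are arrays and bars group means (3 arrays each). Pdk4 is already high at 4 h (12.47 to 12.55), whereas Acsm3, Crot, Acadm and Ppargc1a are low at 24 h and not at 4 h, and Hadha stays between 11.37 and 11.70.

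The same genes fell more broadly in the pulldowns of the other lines. In the interstitial line 25 of the 29 genes fell and 1 rose 24 h after IRI (39.1 percent of all genes called, 19.9 percent lower), with a median log2 fold change of −0.99 against 0.05 over all genes. The endothelial line had 19 lower and 2 higher (42.8 percent of all genes called, 21.7 percent lower; median −0.78 against 0.07), and the myeloid line 12 lower and 5 higher (27.8 percent of all genes called, 14.6 percent lower; median −0.37 against −0.02). Tag-free wild-type kidneys had 19 lower and 2 higher (37.9 percent of all genes called, 20.2 percent higher and 17.7 percent lower; median −0.65 against 0.04), L10a kidneys without Cre 12 lower and 3 higher (38.4 percent of all genes called, 19.4 percent lower; median −0.46 against 0.08), and total RNA 12 lower and 3 higher (31.5 percent of all genes called, 15.7 percent lower; median −0.31 against 0.05). The 6 total RNA arrays fitted alone gave 4 lower and 1 higher, with 3.36 percent of all genes called. Injured total RNA replicate 3 stood apart in several members, such as Crat, at 9.21 there against 10.83 and 10.52 in the other injured arrays, and Etfa, at 10.70 there against 9.19 and 8.97. The 24 h comparisons of the 7 RNA sources share no array. Without sham replicate 1, 9 genes were called in L10a kidneys, 7 lower and 2 higher.

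Over the 7 sources Crot, Acsm3, Acadm, Etfb, Hadh and Ppargc1a were called lower in all 7, and Pdk4 was called higher in all 7. Of all genes tested, 401 (2.08 percent) were called lower in all 7 and 418 (2.17 percent) higher. Each of the 29 was called at least once, 25 of them lower and 7 higher in at least 1 source. Of all genes 79.9 percent were called at least once, 44.2 percent lower and 47.7 percent higher. Slc25a20, Echs1 and Eci2 were called in both directions: Slc25a20 higher in endothelial, myeloid and total RNA and lower in interstitial arrays, Echs1 higher in myeloid arrays and lower in 4 sources, and Eci2 higher in myeloid and L10a arrays and lower in interstitial arrays.

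**Figure D3:**
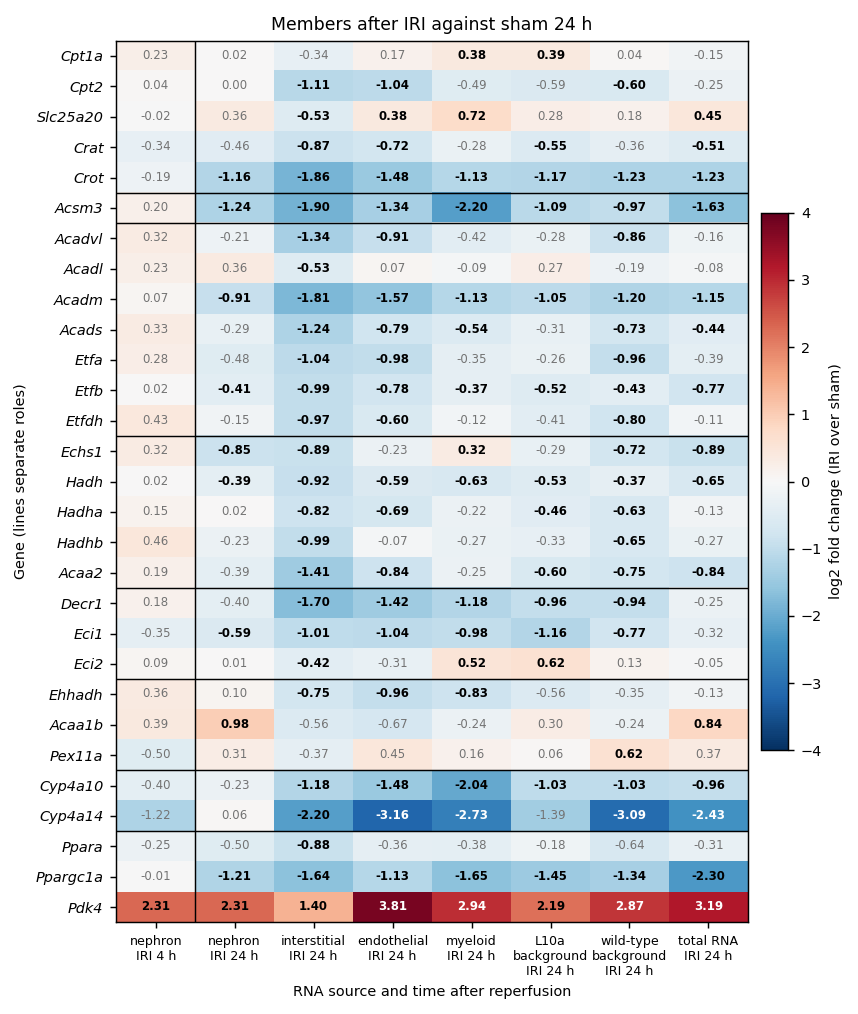
Log2 fold change of IRI over sham at 24 h for each measured gene (rows, grouped by role) in the nephron line at 4 h and 24 h and in the other 6 RNA sources at 24 h; bold numbers passed an adjusted p of 0.05, red is higher and blue lower after IRI. Pdk4 is red in every column, Crot, Acsm3, Acadm, Etfb, Hadh and Ppargc1a are blue in every 24 h column, and Cyp4a14 is at 0.06 in the nephron line but −2.20 in the interstitial line.

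Pdk4 had its largest fold change in the endothelial line, with log2 levels of 12.24, 12.28 and 12.31 in injured arrays, against 8.22, 8.69 and 8.49 in sham arrays. It rose there by 3.81 ± 0.28, 14-fold (limma adjusted p = 1.7e-14), and in the myeloid line by 2.94 ± 0.28 (limma adjusted p = 3.7e-11). The myeloid sham arrays, at 7.83, 8.51 and 8.06, were themselves below the arrays without surgery, at 9.88, 9.66 and 10.16. Injured myeloid mice were also older than sham mice (9.5 against 7 weeks). In the interstitial line Pdk4 was at 11.65, 12.44 and 12.67 in injured arrays, against 10.47, 11.00 and 11.10 in sham arrays (1.40 ± 0.28, limma adjusted p = 9.2e-05). The groups did not overlap in any of these lines. Its log2 fold changes were 3.19 in total RNA, 2.19 in L10a kidneys and 2.87 in tag-free kidneys, all called by limma. The difference between the nephron response and the mean response of the other 3 lines, −0.40 ± 0.33, was not called for Pdk4 (limma adjusted p = 0.381).

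Ppargc1a fell by 1.64 in the interstitial line, 1.13 in the endothelial line, 1.65 in the myeloid line, 1.45 in L10a kidneys and 1.34 in tag-free kidneys on the log2 scale. In total RNA it was at 9.36, 8.99 and 5.79 in injured arrays, against 10.25, 10.37 and 10.41 in sham arrays, so 1 injured array stood far below the rest. Its log2 fold change there was −2.30 (limma adjusted p = 5.5e-05), −1.17 without injured replicate 3 (adjusted p = 0.0012) and −2.95 without injured replicate 1. The call did not hold in the endothelial line without injured replicates 2 or 3 or sham replicates 2 or 3 (limma adjusted p of 0.064 to 0.15), in L10a kidneys without either sham array (0.062 and 0.064) or in tag-free kidneys without injured replicate 2 or either sham array (0.052 to 0.1). Ppara was called lower in the interstitial line alone (−0.88 ± 0.26, limma adjusted p = 0.00524), with log2 fold changes of −0.36 in endothelial, −0.38 in myeloid, −0.18 in L10a, −0.64 in tag-free and −0.31 in total RNA arrays. Leaving out 1 injured array gave it a call in tag-free kidneys (replicate 1, −0.71, adjusted p = 0.046; replicate 4, −0.72, 0.045) and in total RNA (replicate 1, −0.68, 0.034).

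Cyp4a14, a fatty acid ω-hydroxylase and a classical PPARα target, had different values from source to source. In the nephron line it was at 12.03, 12.57 and 11.98 in injured arrays and 12.18, 11.85 and 12.37 in sham arrays, and the groups overlapped (log2 fold change 0.06 ± 0.84). In the endothelial line it was at 7.31, 7.39 and 7.67 in injured arrays, against 9.37, 12.27 and 10.20 in sham arrays (−3.16 ± 0.84, limma adjusted p = 0.00192). In the myeloid line it was at 6.89, 6.86 and 6.28 in injured arrays, against 7.90, 10.35 and 9.96 in sham arrays (−2.73 ± 0.84, limma adjusted p = 0.0108). The sham arrays were spread over more than 2 log2 units in both lines, and the injured arrays all lay below them. Tag-free kidneys were at 10.73, 10.95, 7.46 and 8.57 when injured, against 12.33 and 12.70 in sham arrays (−3.09 ± 0.89, limma adjusted p = 0.00452). L10a kidneys were at 6.94, 6.04, 7.60 and 6.51 when injured, against 9.45 and 6.88 in sham arrays, which overlapped (−1.39, limma adjusted p = 0.212).

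Several calls of Cyp4a14 depended on 1 array. In the interstitial line (−2.20, limma adjusted p = 0.0328) the call did not hold without injured replicates 2 or 3 or sham replicates 2 or 3 (adjusted p of 0.07 to 0.13), and in the myeloid line it did not hold without sham replicates 2 or 3 (−2.25 and −2.45, adjusted p of 0.076 and 0.054), with −3.48 without sham replicate 1. In total RNA the groups overlapped (−2.43, limma adjusted p = 0.0234), and the value was −1.35 without injured replicate 3 (adjusted p = 0.29), −3.47 without injured replicate 1 and was not called without sham replicates 1 or 3 (0.054 and 0.076). Without a sham array the log2 fold change was −0.10 (replicate 1) or −2.68 (replicate 2) in L10a kidneys, −2.90 (replicate 2, adjusted p = 0.058) in tag-free kidneys, and −3.78 (replicate 1) or −2.33 (replicate 2) in the endothelial line, and −2.43 without injured replicate 3 in tag-free kidneys.

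Its neighbour in function Cyp4a10 had a log2 fold change of −0.23 in the nephron line and fell by 2.04 in the myeloid line, 1.48 in the endothelial line, 1.18 in the interstitial line, 1.03 in L10a kidneys, 1.03 in tag-free kidneys and 0.96 in total RNA. The 3 lowest calls were less firm: without sham replicate 1 the L10a value was −0.36 (limma adjusted p = 0.53) and without sham replicate 2 it was −1.70, without sham replicate 2 the tag-free value was −0.94 (0.063), and without injured replicate 3 the total RNA value was −0.63 (0.11). Cyp4a10 and Cyp4a14 belong to a gene cluster of close copies, so their probes may share signal.

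**Figure D4:**
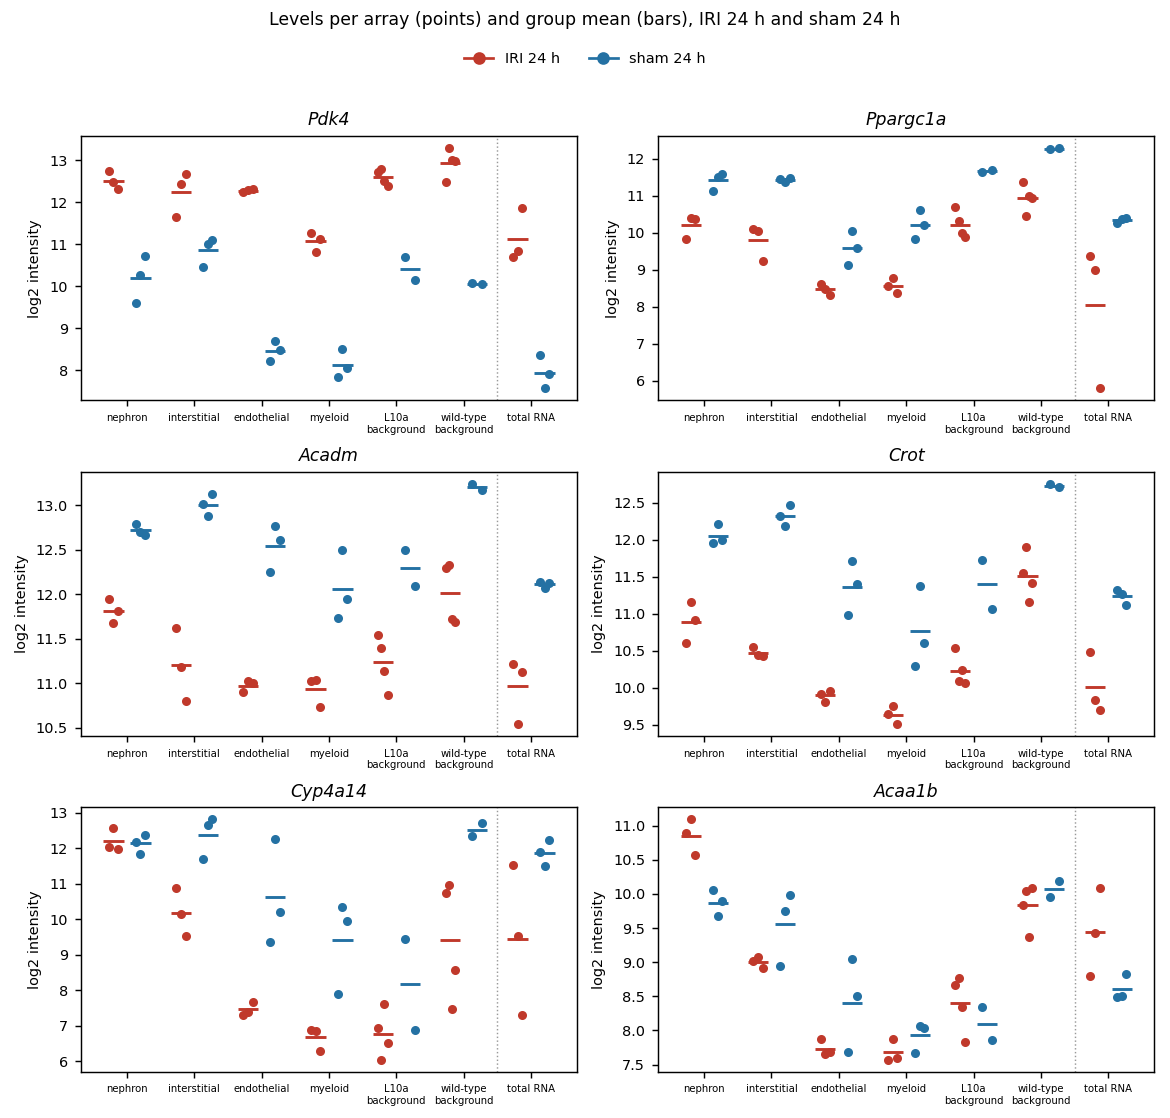
Log2 intensity (vertical axes) of 6 genes in the 7 RNA sources, IRI at 24 h (red, left of each pair) and sham at 24 h (blue, right); points are arrays and bars group means. Total RNA, right of the dotted line, is on its own scale of normalization; Pdk4 is higher after IRI in all 7 sources, and Cyp4a14 overlaps between the groups in the nephron line, in L10a kidneys and in total RNA.

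Falls of the β-oxidation enzymes reached past 1 log2 unit in each of the other sources. In the interstitial line Acsm3 fell by 1.90 on the log2 scale, Crot by 1.86, Acadm by 1.81 and Decr1 by 1.70, each with an SE of 0.19 to 0.23. Acadm was at 11.62, 11.18 and 10.80 in injured arrays, against 13.01, 12.88 and 13.13 in sham arrays, a gap wider than the spread of either group. In the endothelial line Acadm fell by 1.57, Crot by 1.48 and Decr1 by 1.42, and in the myeloid line Acsm3 fell by 2.20, with 9.21, 9.10 and 9.26 in injured arrays, against 11.18, 11.83 and 11.18 in sham arrays, and Decr1 by 1.18. Etfb, by contrast, fell by 0.99 in the interstitial and 0.37 in the myeloid line. In total RNA Acsm3 fell by 1.63, Crot by 1.23 and Acadm by 1.15. L10a kidneys had falls of Crot by 1.17, Eci1 by 1.16, Acsm3 by 1.09 and Acadm by 1.05, and tag-free kidneys of Crot by 1.23, Acadm by 1.20, Acsm3 by 0.97, Etfa by 0.96 and Decr1 by 0.94.

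Few members rose outside Pdk4. Slc25a20 rose by 0.72 in the myeloid line (limma adjusted p = 9.5e-05), 0.45 in total RNA and 0.38 in the endothelial line, Eci2 by 0.62 in L10a kidneys and 0.52 in the myeloid line, Pex11a by 0.62 in tag-free kidneys, Cpt1a by 0.39 in L10a kidneys and 0.38 in the myeloid line, and Echs1 by 0.32 in the myeloid line. Acaa1b rose by 0.84 in total RNA, with 8.79, 9.43 and 10.09 in injured arrays and 8.49, 8.50 and 8.82 in sham arrays, which overlapped. Several of these did not hold when 1 array was left out. Acaa1b in total RNA had 0.51 without injured replicate 3 (limma adjusted p = 0.25) and 0.78 without sham replicate 1 or 2 (0.076 and 0.074). Slc25a20 was not called in the endothelial line without injured replicates 2 or 3 or sham replicates 1 or 3 (0.058 to 0.088), nor in total RNA without injured replicate 1 or sham replicate 2 (0.11 and 0.071). Cpt1a in L10a kidneys was not called without injured replicates 1 or 3 or either sham array (0.052 to 0.24), Cpt1a in the myeloid line without any 1 of 5 arrays, all but sham replicate 2 (0.077 to 0.23), and Echs1 there without injured replicates 1 or 2 or sham replicates 1 or 3 (0.077 to 0.21). Pex11a in tag-free kidneys was not called without either sham array (0.089 and 0.056).

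Proximal tubule marker sums were lower after IRI in several sources, but injured and sham sums overlapped in the endothelial line and in L10a kidneys. Their sums were 57362 to 62644 in injured and 127211 to 137785 in sham arrays of the interstitial line, 50539 to 54940 in injured and 53609 to 83769 in sham endothelial arrays, and 21315 to 22136 in injured and 39215 to 75089 in sham myeloid arrays. Injured tag-free kidneys had 92603 to 133796 against 157011 to 161275 in sham arrays, L10a kidneys 27421 to 45018 against 44734 to 70113, and total RNA 47697 to 63426 against 102979 to 106143. Of the 27 markers, 23 fell in the interstitial, 5 in the endothelial and 21 in the myeloid line, and 2 rose in the endothelial line. Over all genes 19.9, 21.7 and 14.6 percent were called lower in these lines. Neutrophil markers rose at the same time, 9 of 13 in the interstitial, 12 of 13 in the endothelial and 10 of 13 in the myeloid line (19.2, 21.1 and 13.2 percent of all genes called higher). Adipocyte marker sums were uneven in kidneys without Cre. In tag-free kidneys they were 34355 in injured replicate 1 and 7501 to 8771 in the other injured arrays, against 6218 and 12071 in sham arrays. In L10a kidneys they were 8479 to 18872 in injured and 9258 to 9984 in sham arrays. The part of any of these shifts in the members' falls was not tested.

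Of the further pathway genes, Plin2 rose by 1.96 in the interstitial line, 1.17 in the endothelial line, 2.87 in total RNA, 1.67 in L10a kidneys and 2.34 in tag-free kidneys, and Hilpda, an inhibitor of lipid breakdown induced by hypoxia, by 1.86, 2.52 and 1.32 in the interstitial, endothelial and myeloid lines. Bdh1 fell by 2.59 in the interstitial, 1.3 in the endothelial and 1.83 in the myeloid line, and Pdk2 by 1.74, 1.26 and 0.97 in the same lines. Of the 29 further mitochondrial genes 23 fell in the interstitial, 16 in the endothelial and 18 in the myeloid line, with 3, 2 and 2 rising. Of the 35 further peroxisomal and microsomal genes 25, 20 and 12 fell and 1, 3 and 2 rose in these lines, led by the branched-chain oxidase Acox2, with log2 fold changes of −2.96, −1.85 and −2.54. Of the 31 lipid genes 16, 9 and 8 fell and 4, 4 and 6 rose, and of the 27 regulators 14, 8 and 5 fell and 2, 9 and 3 rose. Over all genes 19.9, 21.7 and 14.6 percent were called lower and 19.2, 21.1 and 13.2 percent higher in these lines.

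The response of the nephron line was compared directly with the mean response of the other 3 lines. Of the 29 genes 11 had a higher (less negative or more positive) response in the nephron line and 1 a lower one, with 23 percent of all genes called (11.8 percent higher) and a median log2 difference of 0.41 against −0.06 over all genes. The largest differences were those of Cyp4a14 (2.76 ± 0.97, limma adjusted p = 0.0334), Acaa1b (1.47 ± 0.33, adjusted p = 0.00101), Cyp4a10 (1.34 ± 0.32, adjusted p = 0.00168), Decr1 (1.03 ± 0.22, adjusted p = 0.00059) and Ehhadh (0.95 ± 0.29, adjusted p = 0.0145). Echs1 alone responded more negatively in the nephron line (−0.58 ± 0.14, limma adjusted p = 0.00183). The count was 7 without endothelial sham replicate 2, nephron injured replicate 1 or 3 or nephron sham replicate 2 (18.9 to 21.7 percent of all genes called). It was 6 without nephron sham replicate 1 (18.4 percent). Cyp4a14 itself was not called without any 1 of the 6 nephron arrays or endothelial sham replicate 2 (limma adjusted p of 0.053 to 0.089). Against total RNA, limma called 0 of the 29 differences in response (3.4 percent of all genes called), with 2 at an unadjusted p under 0.05. Without injured total RNA replicate 1, 3 were called, with 11.2 percent of all genes called in that fit.

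Several members were higher in the interstitial pulldown after surgery without clamping. In sham arrays 9 of the 29 genes were higher than without surgery (10.1 percent of all genes called, 5.37 percent higher and 4.7 percent lower), none was lower, and the median log2 fold change was 0.45 against −0.04 over all genes. Cyp4a14 was at 11.69, 12.65 and 12.81 in sham arrays, against 9.67, 7.08 and 9.86 without surgery (3.51 ± 0.84, limma adjusted p = 0.00451). Cyp4a10 was at 11.82, 12.31 and 12.32 in sham arrays, against 11.37, 10.77 and 11.37 without surgery (0.98 ± 0.28, limma adjusted p = 0.0171). Neither gene's groups overlapped. Ehhadh rose by 0.91 ± 0.25, Acadvl by 0.83 ± 0.22 and Cpt2 by 0.72 ± 0.23 (limma adjusted p of 0.0144, 0.0105 and 0.0384), and the other 4 were Hadha, Cpt1a, Hadhb and Etfdh.

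These sham arrays also served the IRI comparison of the line. Cyp4a14 at 10.87, 10.15 and 9.52 in injured interstitial arrays was below sham and, except for 1 array at 9.52, above the arrays without surgery, and Acadm at 11.62, 11.18 and 10.80 was below both the sham arrays and the arrays without surgery (12.48, 12.46 and 12.72). The count of 9 fell to 2 without no-surgery replicate 2 (6.05 percent of all genes called) and to 3 without sham replicate 3 (4.05 percent). Without no-surgery replicate 2 the log2 fold changes were 2.62 for Cyp4a14 (limma adjusted p = 0.072), 0.78 for Cyp4a10 (0.14), 0.77 for Ehhadh (0.095), 0.75 for Acadvl (0.06) and 0.61 for Cpt2 (0.18), and without sham replicate 3 Cyp4a10, Ehhadh, Acadvl and Cpt2 had adjusted p of 0.08 to 0.2. Leaving out sham replicate 2 (Cyp4a10, 0.074; Cpt2, 0.094) or no-surgery replicate 1 (Ehhadh, 0.078; Cpt2, 0.11) also ended calls, and a fit of the 6 arrays alone called 0 (1.02 percent of all genes).

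Adipocyte markers summed to 9651 to 27159 in interstitial sham arrays, against 33603 to 42674 without surgery, and 7 of 18 were called lower (4.7 percent of all genes). Proximal tubule markers summed to 127211 to 137785 in sham arrays, against 95866 to 122389 without surgery. The part of either in the members' differences was not tested.

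**Figure D5:**
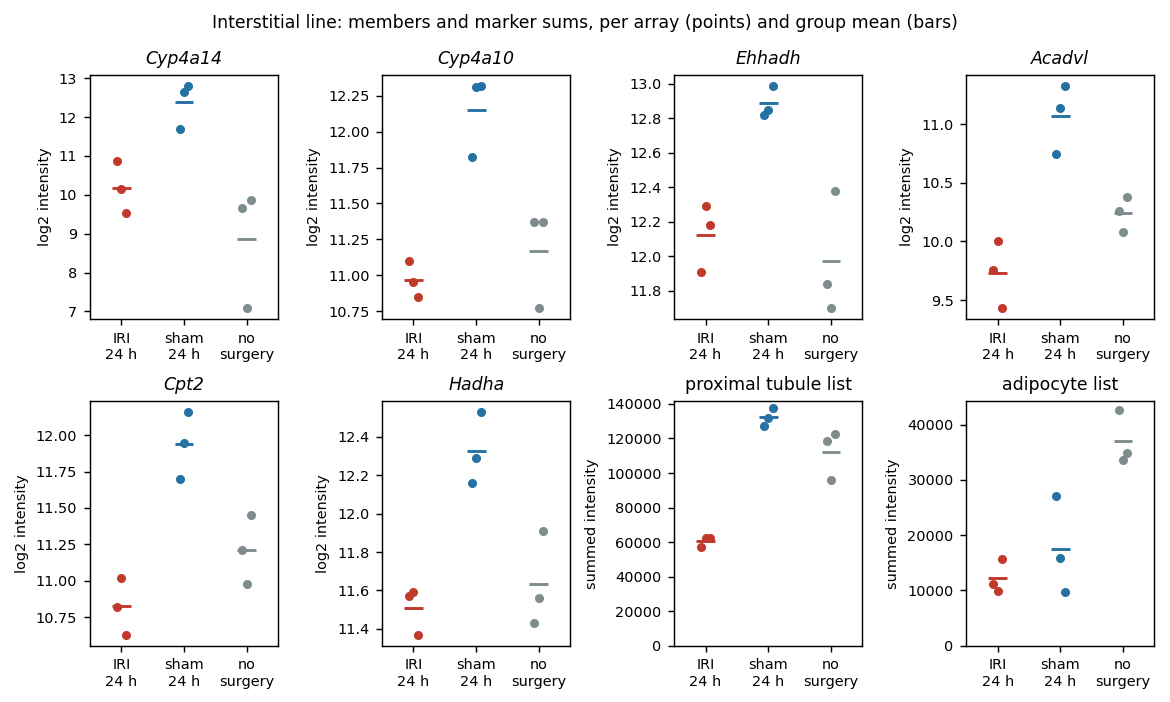
Log2 intensity of 6 genes and summed linear intensity of the proximal tubule and adipocyte marker lists in interstitial arrays with IRI at 24 h, sham at 24 h and no surgery; points are arrays and bars group means (3 arrays each). Sham arrays are the highest group for all 6 genes, and the adipocyte sum is highest without surgery (33603 to 42674).

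Fewer members were called between sham and no surgery in the other lines. In nephron arrays 0 of 29 differed from no surgery by limma (1.74 percent of all genes called), with 0 at an unadjusted p under 0.05 and 1 called in a fit of those 6 arrays alone (5.06 percent of all genes), and the 2 groups differed in age. In the endothelial line 0 of 29 were called (0.85 percent of all genes called), with 1 at an unadjusted p under 0.05. In the myeloid line 4 of 29 were lower in sham arrays (1.58 percent of all genes called, 1.19 percent lower): Pdk4 at 7.83, 8.51 and 8.06 in sham arrays, against 9.88, 9.66 and 10.16 without surgery (−1.77 ± 0.28, limma adjusted p = 0.00028), Crot (−1.12), Ehhadh (−1.0) and Cpt2 (−0.96). That count ranged from 1 to 12 when 1 array was left out (0.238 to 2.7 percent of all genes called). It was 2, 7 and 1 without no-surgery replicates 1, 2 and 3 (0.741, 1.81 and 0.238 percent). It was 1, 12 and 2 without sham replicates 1, 2 and 3 (0.389, 2.7 and 0.466 percent). Array weights gave 21 lower (16.6 percent of all genes called) and a fit of the 6 arrays alone 1 (0.135 percent). Pdk4 kept its call when any 1 array was left out, whereas Crot was not called without no-surgery replicate 3 (−1.05, adjusted p = 0.055) or sham replicate 1 (−0.89, 0.1), Ehhadh had −0.56 without sham replicate 1, and Ehhadh and Cpt2 were not called without no-surgery replicates 1 or 3 or sham replicates 1 or 3 (0.083 to 0.55). Proximal tubule markers summed to 39215 to 75089 in myeloid sham arrays, against 73908 to 102470 without surgery.

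Without surgery most members were higher in the nephron pulldown than in the other lines. Of the 29 genes 20 were higher there than the mean of the other 3 lines and none lower (51 percent of all genes called, 29 percent higher and 22 percent lower), with a median log2 difference of 0.60 against 0.06 over all genes. Cyp4a14 was higher by 2.36 ± 0.68, Pex11a by 2.11 ± 0.15, Ppara by 1.41 ± 0.21, Acaa1b by 1.19 ± 0.24 and Cyp4a10 by 1.09 ± 0.23. Pex11a was at 11.66, 11.43 and 11.29 in nephron arrays, 10.64, 10.45 and 10.36 in interstitial, 9.34, 8.87 and 9.20 in myeloid and 8.28, 8.24 and 8.82 in endothelial arrays, and no 2 lines overlapped. Ppara was at 10.92, 10.96 and 11.08 in nephron, 10.25, 10.09 and 10.06 in interstitial, 9.60, 9.09 and 9.50 in myeloid and 8.95, 8.93 and 9.76 in endothelial arrays, where the last 2 lines overlapped. Hadha and Hadhb were not called in any line, with nephron differences of −0.16 and −0.26.

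Adipocyte markers summed to 33603 to 42674 in interstitial arrays without surgery, against 6170 to 9394 in the other lines without surgery. The part of this in the members' differences was not tested. The interstitial line had 4 genes higher than the mean of the others (32.4 percent of all genes called, 12.9 percent higher and 19.5 percent lower): Pdk4 by 0.82, Pex11a by 0.80, Crat by 0.38 and Etfb by 0.29. That count was 2 without interstitial replicate 1 or endothelial replicate 2 (27.8 and 31.3 percent of all genes called). It was 1 without interstitial replicate 2 (28.1 percent), where Pdk4 was at 0.64 (limma adjusted p = 0.074). Etfb was not called without any of these 3 arrays (limma adjusted p of 0.053 to 0.24). Crat was not called without 11 of the 12 arrays in turn (0.051 to 0.17). The endothelial line had 11 lower (40.9 percent of all genes called, 20.2 percent lower), led by Pex11a (−1.91), Pdk4 (−1.31), Ppargc1a (−1.23), Ppara (−0.96) and Cyp4a10 (−0.88). There 17 were called without endothelial replicate 3 (37.3 percent of all genes) and 21 with array weights (53.5 percent). Ppargc1a was −0.96 without endothelial replicate 1 (limma adjusted p = 0.066). The myeloid line had 9 lower (37.4 percent of all genes called, 20.6 percent lower), led by Pex11a (−1.0), Ppara (−0.71), Eci2 (−0.66), Crat (−0.55) and Etfa (−0.52). Ppara was −0.56 there without myeloid replicate 2 (limma adjusted p = 0.077), and Etfa was not called without replicate 1 or 2 (0.054 and 0.1).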

How the data were processed

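RNA of 57 arrays (Affymetrix Mouse Gene 1.0 ST) was measured in 19 groups taken from the labels. The deposited values are 1 intensity per probe set on a linear scale, made with RMA in Affymetrix Expression Console 1.3.1, per the submitters' processing notes. RMA normalizes arrays to one another, so differences here are relative to all genes. The test plan assumed log2 values; since the deposited intensities were linear, log2 was taken before any test. Of 35556 probe sets, 21789 had 1 gene symbol, 1621 several and 12146 none; only the first were used, the probe set with the highest mean standing for a gene. Genes above a log2 level of 5 in at least 3 arrays were tested (19302). One limma 3.58.1 model (R 4.3.3) over all 19 groups, with eBayes moderation (38 residual degrees of freedom) and no covariate, gave 23 comparisons, and p-values were adjusted over all genes tested in each by the Benjamini-Hochberg method. The number of arrays limits the precision. The fit was tested on simulated data.

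The members, the marker lists and the 136 further pathway entries (122 tested) were chosen with earlier results of these data known. In the nephron comparison at 24 h every member was to be named; elsewhere up to 5 called members in each direction, with Ppara, Ppargc1a, Pdk4, Cyp4a10 and Cyp4a14 after IRI, and up to 6 called genes of each pathway list. Alternatives were another quantile normalization, a common median, no filter or a log2 filter of 6, the mean of a gene's probe sets, a fit of only the groups compared, TRAP or total RNA arrays alone, a replicate block, trended robust moderation, array weights, and leaving out each array. Figures were drawn with matplotlib 3.10.9 (Python 3.11.15).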

Additional observations from a re-analysis of the deposited data

Results flagged for a closer look

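Responses to IRI at 24 h differed between the nephron line and the mean of the interstitial, endothelial and myeloid lines for 12 genes by the limma test of that difference, on the log2 scale. Besides the differences already given for Cyp4a14 (2.76), Acaa1b (1.47), Cyp4a10 (1.34), Decr1 (1.03), Ehhadh (0.95) and Echs1 (−0.58), they were 0.88 ± 0.27 for Cpt2 (limma adjusted p = 0.0147), 0.68 ± 0.25 for Acadvl (adjusted p = 0.0471), 0.60 ± 0.18 for Hadha (adjusted p = 0.0117), 0.59 ± 0.22 for Acadm (adjusted p just under 0.05), 0.57 ± 0.20 for Acads (adjusted p = 0.0324) and 0.54 ± 0.20 for Acadl (adjusted p = 0.0442).

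For other genes the 2 groups compared did not overlap in either of 2 lines, with opposite directions, and these differences between lines were not tested. After IRI, 23.3 percent of all genes lay above sham without overlap in the myeloid line and 22.1 percent in the nephron line. In the interstitial line 24.1 percent lay below. Between sham and no surgery 11.6 percent lay above in the interstitial line, and 7.51 and 12.8 percent below in the myeloid and nephron lines. After IRI, Cpt1a had log2 fold changes of 0.38 in the myeloid and −0.34 (not called) in the interstitial line. Slc25a20 had 0.72 and −0.53, and Eci2 0.52 and −0.42, in the same lines. Pex11a had 0.31 in the nephron and −0.37 in the interstitial line, neither called. Between sham and no surgery, Cpt1a had 0.65 in the interstitial and −0.49 (not called) in the myeloid line. Cpt2 had 0.72 and −0.96, and Etfdh 0.53 and −0.63 (the latter not called), in the same lines. Ehhadh had 0.91 in the interstitial and −0.24 (not called) in the nephron line. In the 58 sets of 4 arrays checked (29 genes in 2 groups) no array stood far from the others.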

How the results depend on the processing

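No called value changed direction under any alternative run. Of 2740 values of named members under alternatives 16 differed in sign from the value given (after rounding to 2 decimals), none of them called, among them Ppargc1a at 4 h (−0.01, and 0.10 with the mean of its probe sets). Counts of called members (of 29) that moved by over 1.5 times were these. Repeated quantile normalization gave 3 for nephron IRI at 4 h and 8 for myeloid sham against no surgery. A common median gave 2 at 4 h, 2 for the interstitial line without surgery (the median of all genes shifted to −0.108) and 17 for interstitial sham against tag-free sham (shifted to −0.24). Fitting only the groups compared gave 20 for nephron IRI at 24 h, 5 for total RNA, 14 at 4 h, 1 for nephron sham, 0 for interstitial sham and 1 for myeloid sham against no surgery, and 14 for interstitial sham against tag-free sham. TRAP arrays alone gave 5 at 4 h and 7 for myeloid sham against no surgery, and total RNA alone gave 5; the nephron response could not then be set against total RNA. The replicate number as a block, with only the groups compared, gave 18 for nephron IRI at 24 h, 0 for total RNA, 5 for tag-free kidneys, 12 at 4 h, 0 for myeloid sham against no surgery and 18 for interstitial sham against tag-free sham. The numbers did not pair the arrays (correlations of 0.03, 0.11 and 0.03 in the nephron line). Array weights gave 16 for nephron IRI at 24 h, 9 at 4 h, 21 for myeloid sham against no surgery, 21 for the endothelial line without surgery and 13 for interstitial sham against tag-free sham. Leaving out 1 array gave ranges of 9 to 17 for the endothelial and 1 to 4 for the interstitial line without surgery, 2 to 11 for interstitial and 1 to 12 for myeloid sham against no surgery, 4 to 8 for interstitial sham against tag-free sham, 9 to 16 for L10a kidneys, 6 to 12 for the nephron response against the other lines and 0 to 3 against total RNA. For single named members, leaving out an array ended 121 calls, added 5 and left 1024 on the same side, and the other settings ended 48, added 43 and left 1499. A group holds 2 to 4 arrays, so small differences could not be resolved, and Cyp4a14 had the largest SE of the members after IRI in the nephron line (0.84).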
